A study of Mus musculus with 42 samples.

Results

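Methylation of lysine 4 of histone H3 marks active promoters and enhancers, and in mammals most of it is laid down by the COMPASS complexes. Each complex holds 1 of 6 large SET-domain methyltransferases: Kmt2a and Kmt2b, which act at the promoters of developmental genes, Kmt2c and Kmt2d, which monomethylate enhancers, and Setd1a and Setd1b, which trimethylate promoters broadly. The enzymes share a core of Wdr5, Ash2l, Rbbp5 and Dpy30, which holds the SET domain in its active form. In the male germ line, Kmt2b is known to be needed in spermatogonia, and H3K4 methylation later marks the sites of meiotic recombination through another enzyme, Prdm9. Transcripts of these 10 genes were measured in mouse testis cells enriched for spermatogonia, with and without the chromatin remodeller CHD8 in germ cells. The 10 genes were chosen by name from the 27179 genes of the count table, and all of them were found and tested in every comparison.

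The cells came from 10 dpp (days postpartum) C57BL/6J male mice. Control mice carried Ddx4-Cre and Chd8 +/F, and mutant (CKO) mice carried Ddx4-Cre and Chd8 F/-, where F is an allele with loxP sites around exons and - is a null allele. Ddx4-Cre acts in germ cells, so the control germ cells keep 1 functional Chd8 copy and the mutant germ cells none, while the somatic cells of the mutants carry the null allele too. From dissociated testes, c-Kit+ cells (differentiating spermatogonia) were taken first with magnetic beads, and Thy1+ cells (undifferentiated spermatogonia) were taken from the remainder. There were 3 RNA-seq libraries in each of 4 groups, 12 in all, and cells of 3 pups went into an analysis. Whether same-group libraries came from separate litters is not stated in the sources used here, so p-values measure the spread between these libraries. The 30 ChIP-seq samples of the series were not analysed here.

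Each library held 32266861 to 45396233 counted reads, of which the 10 genes took 0.147% to 0.254%. The lowest count of any of them was 823 reads (Setd1b in control c-Kit+ library 2). Levels are given as CPM, counts scaled to the library total, after TMM scaling over the 12 libraries. Levels of different genes are compared as CPM per kb of exon, since the exon lengths run from 1108 bases (Dpy30) to 19827 bases (Kmt2d). Thy1 was higher in control Thy1+ than in control c-Kit+ libraries by 4.22 on the log2 scale, and Kit had a log2 difference (Thy1+ minus c-Kit+) of -1.19. Chd8 itself had log2 fold changes of 0.03 (Thy1+) and 0.06 (c-Kit+) between mutant and control, and counts over the whole gene do not test the deletion of its floxed exons. Germ cell markers were present in every library, with 6 genes summing to 1010 to 2560 CPM. So were somatic markers, a list of 45 genes for Sertoli, Leydig, myoid, stromal, endothelial, macrophage, mast and erythroid cells. They summed to 12000 to 15700 CPM in control Thy1+, 13700 to 20900 in mutant Thy1+, 3140 to 3800 in control c-Kit+ and 5790 to 7360 in mutant c-Kit+ libraries. In every library the somatic sum was above the germ cell sum, which was 1010 to 2010 CPM in Thy1+ libraries. The lists hold different genes, so these sums do not give shares of cells, and the sorted cells are named by their surface marker. In bulk RNA a smaller number of cells of a type and less RNA per cell cannot be told apart.

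Promoter sequences are shown for Kmt2a and Kmt2c, whose transcripts moved together, for Setd1a, which was lower in mutant c-Kit+ cells, and for Rbbp5, which was not lower in the mutant. Each is the 250 bases before the RefSeq start (GRCm38.p6, the same assembly as mm10), 5′ to 3′ on the gene's strand. Capitals mark matches to GGGCGG on either strand, the GC box bound by SP and KLF factors.
Kmt2a, chr9:44881290-44881539, minus strand: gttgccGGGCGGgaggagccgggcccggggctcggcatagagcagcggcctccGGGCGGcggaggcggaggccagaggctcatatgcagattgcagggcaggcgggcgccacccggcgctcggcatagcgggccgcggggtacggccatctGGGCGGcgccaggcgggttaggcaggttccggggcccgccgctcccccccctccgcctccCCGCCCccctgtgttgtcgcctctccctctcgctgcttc
Kmt2c, chr5:25498784-25499033, minus strand: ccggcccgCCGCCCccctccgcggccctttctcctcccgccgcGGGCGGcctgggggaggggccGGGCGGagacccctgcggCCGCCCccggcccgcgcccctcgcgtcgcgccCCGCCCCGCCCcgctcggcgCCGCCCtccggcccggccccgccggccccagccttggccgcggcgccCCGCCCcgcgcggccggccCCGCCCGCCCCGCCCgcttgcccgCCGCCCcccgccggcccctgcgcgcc
Setd1a, chr7:127777139-127777388, plus strand: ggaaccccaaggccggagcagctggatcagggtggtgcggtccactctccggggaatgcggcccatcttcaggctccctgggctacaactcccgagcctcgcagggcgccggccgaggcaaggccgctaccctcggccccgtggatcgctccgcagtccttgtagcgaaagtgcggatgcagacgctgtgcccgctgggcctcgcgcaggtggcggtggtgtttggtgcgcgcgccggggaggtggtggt
Rbbp5, chr1:132477117-132477366, plus strand: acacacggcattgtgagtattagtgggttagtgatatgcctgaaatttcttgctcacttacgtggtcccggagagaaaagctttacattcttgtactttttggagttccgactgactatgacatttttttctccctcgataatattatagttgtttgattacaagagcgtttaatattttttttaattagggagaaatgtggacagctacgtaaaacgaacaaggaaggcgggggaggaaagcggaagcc
The RefSeq promoter table held 7 of the 10 genes, without Kmt2b, Setd1b and Ash2l. Dpy30 had 4 entries there, and only the entry nearest to its start in the count table was used. The 250 bases before Kmt2c held 48 CpG dinucleotides at 91.6% G and C, and 99.8% of the 32851 promoters in the table held fewer. Kmt2a had 29 CpG, Kmt2d 26 and Setd1a 25, against 12 for Wdr5, 10 for Rbbp5 and 1 for Dpy30. The median over all promoters was 6. The GC box occurred in the windows of Kmt2a, Kmt2c, Kmt2d and Wdr5, and in 32.7% of all promoters. Kmt2c had 12 matches, some of them overlapping, and Kmt2a and Kmt2d had 4 each. Of 6 other motifs searched on both strands, only the NF-Y motif CCAAT, held by 33.8% of all promoters, was found in these 7 windows, in that of Dpy30. The words for ETS factors (CCGGAAG), NRF1 (CGCATGCG), E2F (TTTCCCGC or TTTGGCGC), YY1 (AAGATGGCG) and the TATA box (TATAAA) were not in these windows. They were held by 6.91%, 1.55%, 1.3%, 0.606% and 12.4% of all promoters. The letters of a window say nothing of which factor binds there.

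The order of transcript levels per kb of exon was much the same in the 4 groups. Wdr5, a WD-repeat protein that scaffolds the core, was the highest, followed by Ash2l, and then by the enzyme gene Setd1a. In control c-Kit+ cells these averaged 105 ± 6.00 (SD, n = 3), 75.5 ± 3.44 and 70.9 ± 6.36 CPM per kb. In these libraries the ranges of Ash2l and Setd1a overlapped, while Wdr5 stood above Ash2l. In control Thy1+ libraries Wdr5 averaged 76.6 ± 10.7, Ash2l 61.1 ± 5.95 and Setd1a 51.0 ± 5.98 CPM per kb, and each range overlapped that of the next gene. Below them, Kmt2b and Dpy30 overlapped each other in both control groups, at 37.3 ± 2.29 and 36.1 ± 6.09 CPM per kb in control Thy1+ cells. Kmt2a (20.0 ± 2.84) and Kmt2c (20.7 ± 1.23) were also not separated there, nor was Kmt2a from the core gene Rbbp5 (18.8 ± 0.596). Kmt2d (14.6 ± 1.5) was lower than these, and Setd1b was the lowest in all 4 groups. In control c-Kit+ cells Setd1b averaged 3.07 ± 0.313 CPM per kb, with no overlap with Kmt2d at 10.6 ± 2.06.

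**Figure D1:**
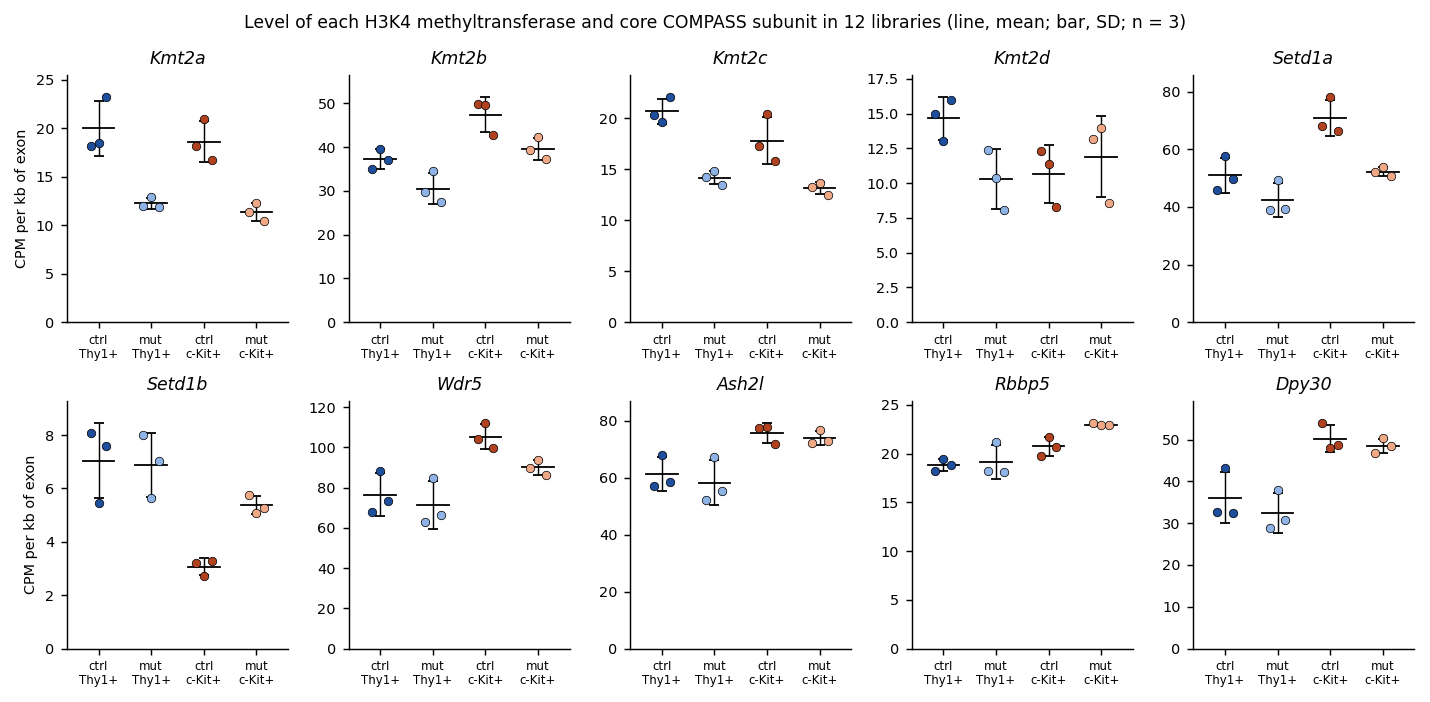
Level of each of the 10 genes in the 12 libraries, as CPM per kb of exon (vertical axis, from 0, scaled separately in each panel), by group on the horizontal axis. Points are libraries, the horizontal line is the group mean and the bar the SD (n = 3), and the mutant points of Kmt2a and Kmt2c lie below all control points in both populations.

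To see how loss of Chd8 affected these genes, mutant and control libraries were compared in Thy1+ and in c-Kit+ cells, fitting all genes with edgeR quasi-likelihood models. A gene was called when its adjusted p was under 0.05 and its absolute log2 fold change was over 0.5. In mutant c-Kit+ cells the transcripts of Kmt2a, Kmt2b, Kmt2c and Setd1a were lower by the adjusted p, Kmt2a by the most, and those of Setd1b were higher. In mutant Thy1+ cells Kmt2a and Kmt2c had fold changes of much the same size, which passed with the replicate number as a block and not in the quasi-likelihood fit of the 6 libraries without it. The core subunits Ash2l, Rbbp5 and Dpy30 did not pass the test in either population.

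Kmt2a, the founding MLL gene and a fusion partner in leukaemia, had 299, 344 and 274 CPM in control c-Kit+ libraries 1 to 3 and 187, 202 and 170 CPM in the mutant ones. The groups did not overlap, and the lowest control library lay well above the highest mutant library. This was a log2 fold change of -0.77 ± 0.091 (SE, n = 3 per group), or -41.4%, with an adjusted p of 0.00031. In Thy1+ cells Kmt2a had 299, 303 and 382 CPM in control libraries and 197, 212 and 195 CPM in mutant libraries. Again no mutant library reached the level of any control. Its fold change on the log2 scale was -0.70 ± 0.12, or -38.3%, but the adjusted p of 0.163 did not pass, since no gene of 17416 did in that comparison. With replicate number as a block, which the correlation between same-numbered libraries allows in this comparison, the value was -0.69 ± 0.068 with an adjusted p of 4.72e-06. The difference between the effects in the 2 populations was -0.01 on the log2 scale with a 95% interval of -0.35 to 0.33, which spans both directions.

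Kmt2c, an enhancer methyltransferase and a subunit of the same complex family as Kmt2d, had 341, 331 and 371 CPM in control Thy1+ libraries. Mutant Thy1+ libraries had 241, 249 and 227 CPM, all below the controls. Kmt2c had a log2 fold change of -0.53 ± 0.093 with an adjusted p of 0.163, and -0.53 ± 0.057 with an adjusted p of 8.49e-06 with the block. In c-Kit+ libraries Kmt2c had 291, 344 and 266 CPM in controls and 224, 230 and 210 CPM in mutants, which did not overlap either. Here -0.50 ± 0.089 had an adjusted p of 0.00179, and its size fell just short of the fold minimum, so Kmt2c was lower by the test but was not called.

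Kmt2d, its paralog, had 297, 258 and 316 CPM in control Thy1+ and 246, 207 and 161 CPM in mutant Thy1+ libraries, which did not overlap. A log2 fold change of -0.50 ± 0.16 had an adjusted p of 0.321, and 0.000756 with the block. In c-Kit+ cells the control values were 243, 225 and 165 CPM and the mutant values 262, 278 and 169 CPM. These overlapped, and the log2 fold change was 0.10 ± 0.18 with an adjusted p of 0.678. The c-Kit+ effect minus the Thy1+ effect was 0.67 ± 0.28 with an adjusted p of 0.468, so the 2 effects were not shown to differ. Libraries numbered 3 were the lowest in 3 of the 4 groups, and control Thy1+ library 3 was the highest of its group. Without number 3, the blocked comparison in Thy1+ cells called Kmt2a alone.

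Kmt2b, a promoter methyltransferase, had smaller fold changes than Kmt2a in both populations. It had 422, 419 and 362 CPM in control c-Kit+ and 332, 358 and 315 CPM in mutant c-Kit+ libraries, with no overlap. Kmt2b changed by -0.32 on the log2 scale (± 0.075) with an adjusted p of 0.00736. In Thy1+ cells the controls had 296, 335 and 314 CPM and the mutants 251, 292 and 231 CPM. Here too the groups did not overlap, with a log2 fold change of -0.28 ± 0.12 and an adjusted p of 0.393, or 0.000932 with the block.

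Setd1a, a broad promoter trimethylase, had 404, 464 and 394 CPM in control c-Kit+ libraries and 308, 320 and 301 CPM in mutant ones. The gap between the groups was wide compared with the spread within the mutants, and about as wide as the spread within the controls. The log2 fold change was -0.50 ± 0.070 with an adjusted p of 0.000598, just short of the fold minimum as for Kmt2c. In Thy1+ cells Setd1a had 271, 341 and 295 CPM in controls and 231, 293 and 232 CPM in mutants, and these overlapped. The log2 fold change was -0.26 ± 0.14 with an adjusted p of 0.467. With the block it was -0.26 with an adjusted p of 0.0011, since each mutant library was below the control of its own number.

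Setd1b, the paralog of Setd1a, went the other way in c-Kit+ cells. It had 28.0, 23.5 and 28.5 CPM in control c-Kit+ and 49.8, 44.2 and 45.7 CPM in mutant c-Kit+ libraries. All mutant libraries were above all controls, with a log2 fold change of 0.75 ± 0.097 and an adjusted p of 0.000429. In Thy1+ cells the controls had 70.0, 47.3 and 66.1 CPM and the mutants 69.4, 48.9 and 61.1 CPM, which ran side by side. The log2 fold change there was -0.03 ± 0.18 with an adjusted p of 0.958. Subtracting the Thy1+ effect from the c-Kit+ effect gave 0.84 ± 0.22, with an unadjusted p of 0.00239 and an adjusted p of 0.386 in edgeR's fit over the 12 libraries. Thus the difference between populations did not pass the correction in the fit without a block, and 0 of the 10 genes (0% of all genes) passed it, with 2 (Setd1b and Kmt2d) at an unadjusted p under 0.05 against 10% of all 18002 genes.

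The groups stood in the same order by Setd1b as by summed somatic markers except for the 2 Thy1+ groups. Of 40 somatic markers tested in c-Kit+ cells 28 were called higher in the mutant and 0 lower, beside 14.8% and 7.41% of all genes. Of all 45 markers, 0 to 1 had no read in every library of a group. In the same libraries the 6 germ cell markers summed to 2180 to 2560 CPM in controls and 1660 to 1910 CPM in mutants. The part of the somatic and germ cell shares in the values of Setd1b, or in the lower values of the other enzymes, was not tested.

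**Figure D2:**
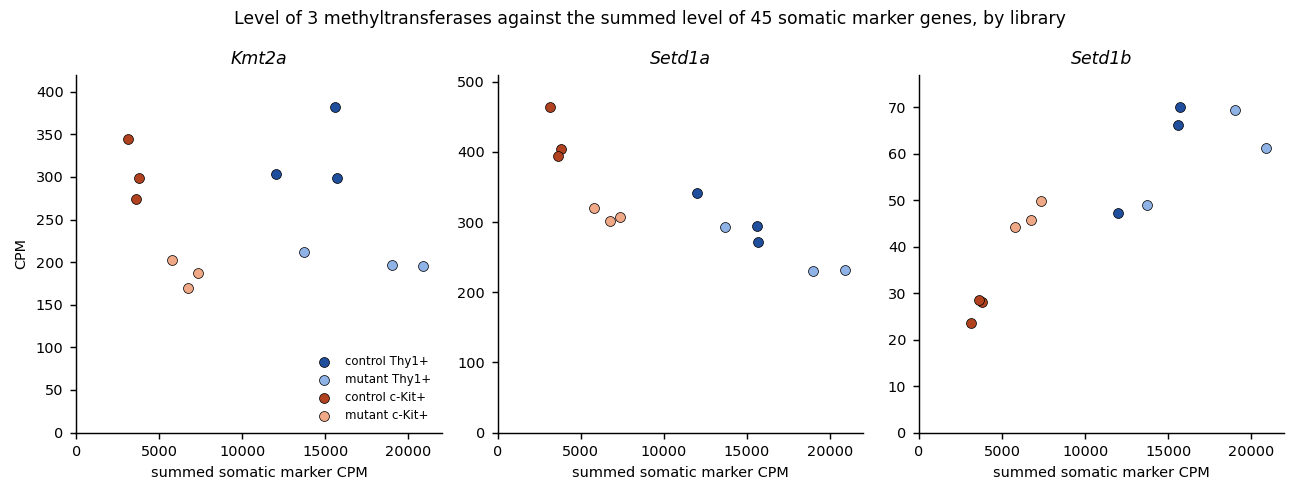
CPM of Kmt2a, Setd1a and Setd1b (vertical axes, from 0) against the summed CPM of 45 somatic marker genes (horizontal axis), 1 point per library, coloured by group. Setd1b is lowest in the control c-Kit+ libraries, which have the lowest somatic sums, and the mutant libraries of each population have higher medians of the somatic sum than its controls.

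Of the core subunits, Wdr5 alone passed the test. It had 302, 324 and 290 CPM in control c-Kit+ and 260, 272 and 251 CPM in mutant c-Kit+ libraries, which did not overlap, with a log2 fold change of -0.28 ± 0.063 and an adjusted p of 0.00553. In Thy1+ cells its value was -0.10 ± 0.16 and did not pass. Ash2l, which with Rbbp5 stimulates the SET domain, had log2 fold changes of -0.06 ± 0.13 (Thy1+) and -0.09 ± 0.060 (c-Kit+). The 95% intervals were -0.37 to 0.24 and -0.22 to 0.04. Dpy30, the smallest subunit, which binds Ash2l, had -0.14 ± 0.17 and -0.11 ± 0.075. Rbbp5 had 0.03 ± 0.11 and 0.09 ± 0.066. In c-Kit+ cells its mutant libraries (83.8, 83.3 and 83.3 CPM) all lay above the controls (71.9, 78.9 and 75.3 CPM), with an adjusted p of 0.317. These intervals leave room for changes of the size seen for Wdr5 in several cases, and they exclude a change as large as that of Kmt2a.

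**Figure D3:**
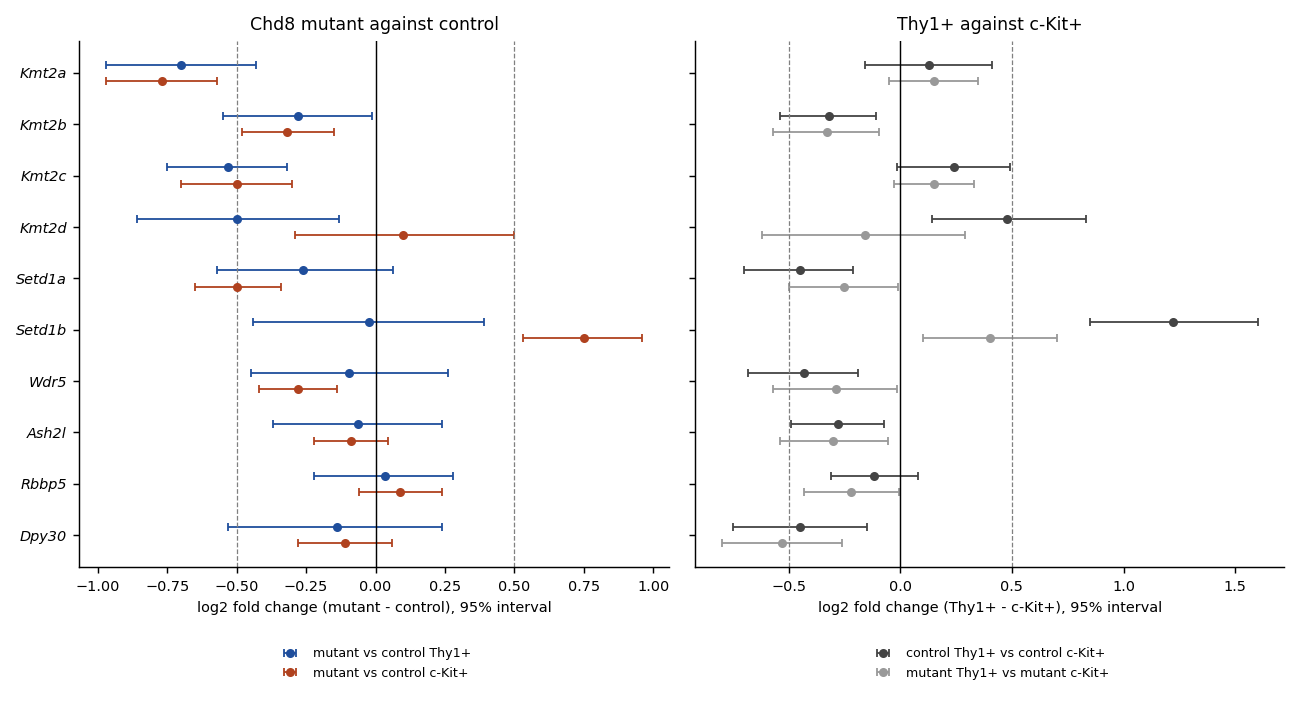
Log2 fold changes of the 10 genes with 95% intervals from edgeR (horizontal axes), for mutant against control in each population (left) and for Thy1+ against c-Kit+ in each genotype (right). Dashed lines mark the fold minimum of 0.5, and Kmt2a lies beyond it on the left in both populations.

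Counted over the 10 genes, 1 was called lower and 1 higher in mutant c-Kit+ cells (Kmt2a and Setd1b), where 7.41% of all 17134 tested genes were called lower and 14.8% higher. By the adjusted p alone, 5 were lower and 1 was higher, against a background of 18.3% and 20.8%. The libraries did not overlap for 5 genes on the lower side (background 20.6%) and 2 on the higher side (background 31.6%). In Thy1+ cells edgeR called 0 of the 10 genes and 0% of all genes. At an unadjusted p under 0.05 there were 4, Kmt2a, Kmt2b, Kmt2c and Kmt2d, against 12.4% of all genes. The same 4 did not overlap between groups on the lower side, against 10.7% of all genes. With the block 3 were called lower (Kmt2a, Kmt2c and Kmt2d) and 0 higher, where 4.92% and 3.2% of all genes were. Without a block, the edgeR exact test, DESeq2 and the fit over 12 libraries each called Kmt2a and Kmt2c lower, where they called 1.67%, 1.9% and 1.31% of all genes lower. In the blocked Thy1+ fit, 11 of 43 somatic markers tested were called higher and 0 lower. Of 7 markers of undifferentiated spermatogonia 6 were called lower, with sums of 567 to 814 CPM in controls and 379 to 454 CPM in mutants, and of 6 germ cell markers 2 were called lower. The part of these cell types in the Thy1+ values of the 10 genes was not tested.

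By role, the median log2 fold change was -0.39 (Thy1+) and -0.41 (c-Kit+) for the 6 enzymes and -0.08 and -0.10 for the 4 core genes. Over all tested genes it was 0.03 and 0.01. Genes with at least 8000 bases of exon, 5 of the 6 enzymes among them, had medians of -0.09 and -0.06. The germ cell markers had medians near those of the enzymes, -0.37 in both populations. Markers of differentiating spermatogonia had -0.33 and -0.41, and those of undifferentiated spermatogonia -0.85 and -0.02. The part of the germ cell share in the enzyme medians was not tested. Summed per kb of exon, the enzymes took 142, 154 and 156 in control Thy1+ and 115, 128 and 107 in mutant Thy1+ libraries. In c-Kit+ libraries the sums were 169, 183 and 153 in controls and 135, 141 and 125 in mutants. Neither pair of groups overlapped. The core genes summed to 176, 219 and 183 in control Thy1+ and 162, 211 and 170 in mutant Thy1+ libraries, which overlapped. In c-Kit+ libraries they summed to 255, 259 and 241 in controls and 232, 244 and 231 in mutants, which overlapped by 1 library. The ratio of core to enzyme transcripts was 1.18 to 1.42 in control Thy1+, 1.41 to 1.66 in mutant Thy1+, 1.41 to 1.57 in control c-Kit+ and 1.72 to 1.85 in mutant c-Kit+ libraries. The groups overlapped in Thy1+ and not in c-Kit+ cells, and the mutant ratio was above that of the control of the same number in 3 of 3 pairs in both populations.

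**Figure D4:**
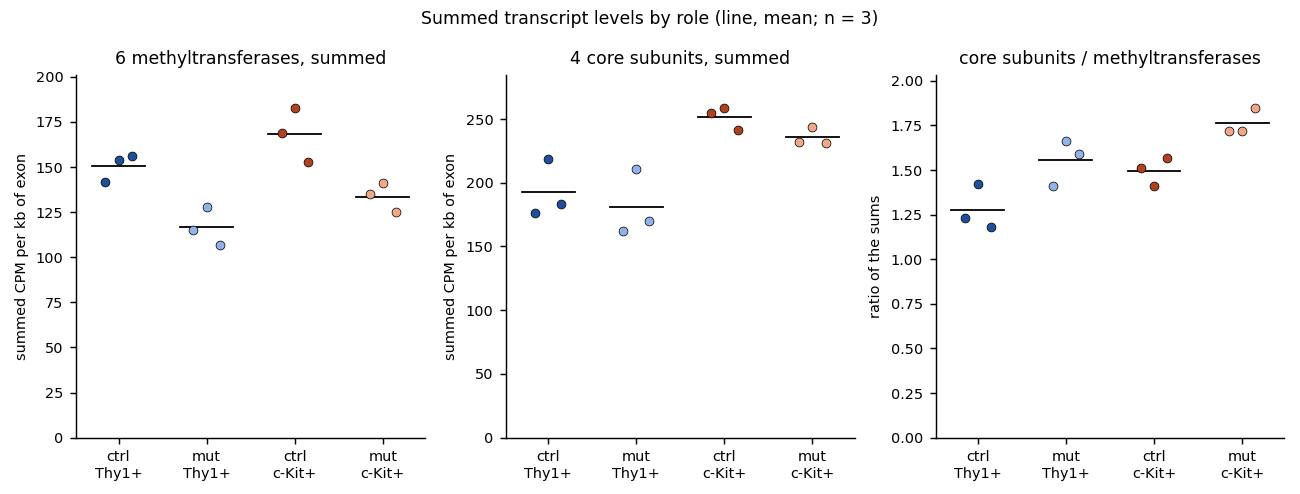
Summed CPM per kb of exon of the 6 enzymes (left) and the 4 core subunits (middle), and the ratio of the second sum to the first (right), for each library by group. Points are libraries and lines are means (n = 3), and the enzyme sums of mutants lie below those of controls in both populations.

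Same-numbered libraries were set side by side, since their deviations from the group means went together (correlations of 0.399 to 0.646 in Thy1+ and 0.121 to 0.21 in c-Kit+ cells). Kmt2a was lower in 3 of 3 same-number differences in both populations, by -0.60, -0.52 and -0.97 in Thy1+ and by -0.68, -0.76 and -0.69 in c-Kit+ cells on the log2 CPM scale. Kmt2b, Kmt2c, Setd1a and the core gene Wdr5 had negative differences in 3 of 3 in both populations. Ash2l and Dpy30 had them in 3 of 3 in Thy1+ cells. In edgeR's blocked fit of Thy1+ cells Wdr5, Ash2l and Dpy30 did not pass (adjusted p 0.152, 0.352 and 0.164). The share of all genes with 3 of 3 differences of 1 sign was not counted. For Wdr5 the Thy1+ pairs differed by -0.11, -0.06 and -0.15. Its c-Kit+ pairs differed by -0.21, -0.25 and -0.21. Kmt2d in Thy1+ cells had differences of -0.27, -0.32 and -0.98, so number 3 gave most of its mean. Setd1b in c-Kit+ cells was higher by 0.83, 0.91 and 0.68.

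**Figure D5:**
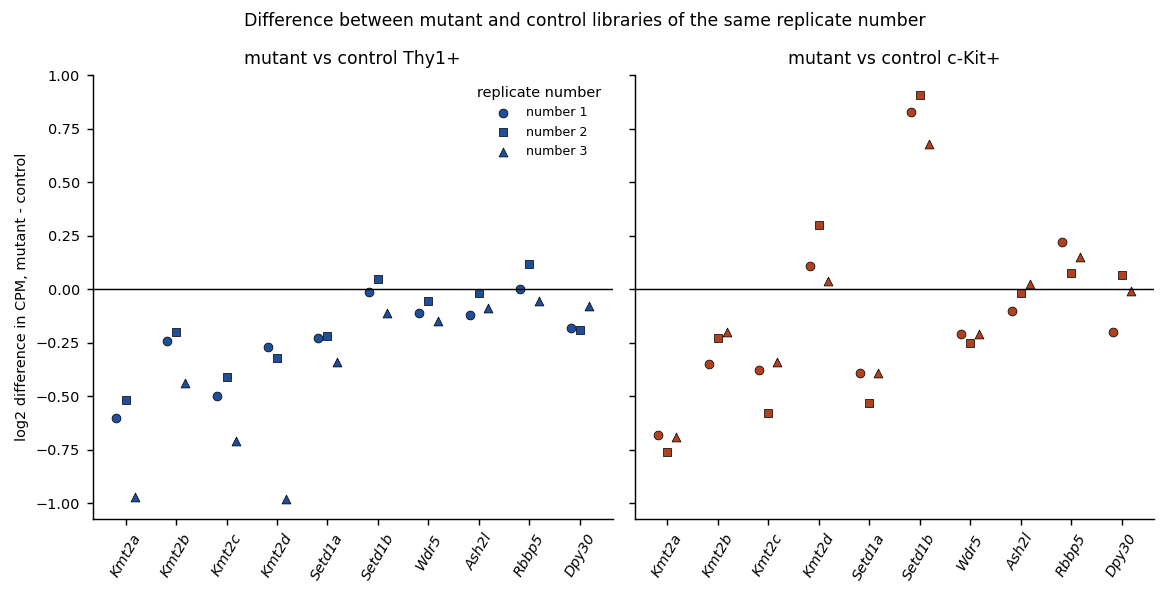
Log2 difference in CPM between the mutant and the control library of the same replicate number (vertical axis). Each of the 10 genes (horizontal axis) is shown in Thy1+ (left) and c-Kit+ (right) cells. Marker shapes stand for the numbers 1, 2 and 3, and all values of Kmt2a lie between -0.97 and -0.52.

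The Thy1+ and c-Kit+ populations were also compared with each other, as Thy1+ minus c-Kit+. In controls, Setd1b was higher in Thy1+ cells, while Setd1a, Kmt2b and the core subunits Wdr5, Ash2l and Dpy30 were lower by less than the fold minimum. There, 1 of the 10 genes was called higher in Thy1+ than in c-Kit+ cells and 0 lower, where 20.7% and 7.08% of all genes were called. That gene was Setd1b, at 61.1 against 26.7 CPM, with a log2 difference of 1.22 ± 0.16 and an adjusted p of 0.000718. Below the fold minimum, Kmt2d was higher in Thy1+ cells (0.48 ± 0.15, adjusted p 0.0344). Setd1a (-0.45), Wdr5 (-0.43), Dpy30 (-0.45), Kmt2b (-0.32) and Ash2l (-0.28) were lower, with adjusted p from 0.0128 to 0.0407. By the adjusted p alone this made 5 lower and 2 higher, against 13.6% and 24% of all genes. Kmt2a (0.13) and Kmt2c (0.24 ± 0.11, adjusted p 0.124) did not pass. In mutants, Dpy30 was called lower in Thy1+ cells (-0.53 ± 0.12, adjusted p 0.0126) and no member was called higher, where 5.03% and 15.3% of all genes were. Setd1b had 0.40 ± 0.13 there with an adjusted p of 0.0503. Its libraries overlapped between the mutant populations, unlike in controls. Dpy30 was not called without mutant Thy1+ library 1 or 3 or mutant c-Kit+ library 2. Control libraries enter both the genotype and the population comparison, so the values of a gene in them are not independent. Of 41 somatic markers tested between control populations, 17 were called higher in Thy1+ cells and 9 lower. Stromal markers summed to 11000 to 14300 CPM in control Thy1+ and 1790 to 2240 CPM in control c-Kit+ libraries. Germ cell markers summed to 1400 to 2010 and 2180 to 2560 CPM. The part of these cell types in the differences between populations was not tested.

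Partners of single complexes and other enzymes of the mark were taken from fixed lists. Of 12 subunits particular to 1 or some of the complexes, 1 was called lower in mutant c-Kit+ cells and 0 higher. The shares of all genes there were 7.41% and 14.8%. The called gene was Kdm6a, an H3K27 demethylase of the Kmt2c and Kmt2d complexes, at 29.7 ± 0.539 against 50.7 ± 11.8 CPM (log2 fold change -0.83 ± 0.14, adjusted p 0.00155). By the adjusted p alone, 5 of the 12 were lower and 2 were higher in mutant c-Kit+ cells, beside 18.3% and 20.8% of all genes. In Thy1+ cells 0 of the 12 were called, as were 0% of all genes. Of 7 other methyltransferases and relatives, 2 were called lower in c-Kit+ cells and 0 higher, beside 7.41% and 14.8% of all genes. The meiotic enzyme Prdm9 had 12.3 ± 2.32 against 74.6 ± 25.2 CPM (-2.66 ± 0.24, adjusted p 0.000144), and Smyd3 had 19.1 ± 1.46 against 30.7 ± 3.57 CPM (-0.74 ± 0.11, adjusted p 0.000785). In Thy1+ cells Prdm9 had 6.80 ± 0.929 against 26.0 ± 14.2 CPM, with an adjusted p of 0.220, and 6.13e-05 with the block. Its change in c-Kit+ cells was larger than that of any of the 10 members.

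On the opposing side, of 6 H3K4 demethylases Kdm5a was called lower (308 ± 12.3 against 493 ± 64.5 CPM, -0.74 ± 0.087) and Kdm5c higher (91.7 ± 3.59 against 60.7 ± 5.82 CPM, 0.54 ± 0.083) in mutant c-Kit+ cells, 1 each way beside 7.41% of all genes lower and 14.8% higher. Of 12 readers of H3K4me3, 2 were called higher and 0 lower, a share near the 14.8% of all genes called higher. These were the remodeller Chd1 (67.2 ± 1.28 against 44.7 ± 2.28 CPM) and the demethylase Phf2 (36.4 ± 3.55 against 17.0 ± 1.94 CPM). Both were also called higher in control Thy1+ than in control c-Kit+ cells, as was Ing4, another reader, which makes 3 of 12 beside 20.7% of all genes. Of 10 genes for H2B ubiquitination and the PAF1 complex, which act ahead of H3K4 trimethylation, 0 were called in either genotype comparison. In Thy1+ cells 0% of all genes were called as well, and in c-Kit+ cells 7.41% were called lower and 14.8% higher. By the adjusted p alone, 3 of the 10 were lower and 1 was higher in mutant c-Kit+ cells, beside 18.3% and 20.8% of all genes. Median log2 fold changes in c-Kit+ cells were -0.16 for the complex-specific subunits, -0.03 for the other methyltransferases, -0.08 for the demethylases, 0.11 for the readers and -0.05 for the ubiquitination genes.

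Of 6 genes known as Kmt2a targets in other tissues, 3 were measured well enough to test in c-Kit+ cells. Among them Meis1 and Hoxc8 were called higher in the mutant, beside 14.8% of all genes. Meis1 had 17.8 ± 1.49 against 8.18 ± 0.283 CPM and Hoxc8 3.47 ± 1.16 against 1.5 ± 0.330 CPM. In control Thy1+ against c-Kit+ cells 5 of 5 tested were called higher, at low levels, beside 20.7% of all genes. In Thy1+ cells 0 of 6 were called between genotypes. With the block Hoxc8 was called higher (0.61, adjusted p 0.00783), beside 3.2% of all genes. These genes are also expressed in somatic cells. In mutant c-Kit+ cells 28 of 40 somatic markers tested were called higher and 0 lower, beside 14.8% and 7.41% of all genes. Between control populations 17 of 41 were called higher in Thy1+ cells and 9 lower, beside 20.7% and 7.08% of all genes. The part of somatic cells in the values of these genes was not tested.

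The transcripts most like Kmt2a over the 12 libraries were Cep350 (r = 0.976), Kmt2c (0.967), Catsperg1 (0.961), Xrcc1 (0.954) and Efr3b (0.944). The points are the 12 libraries and share the group structure, so these are descriptions. Over the deviations of the 12 libraries from their group means, Kmt2a and Kmt2c had r = 0.877. Wdr5 went with Ash2l (0.972) and Setd1a (0.971), and Setd1b ran against Wdr5 (-0.939) and Setd1a (-0.929). Deviations of same-numbered mutant and control libraries went together, so these 12 points are not independent. In both Thy1+ groups library 2 had the highest germ cell sum and the lowest somatic sum. It was also the highest of its group in Wdr5 and Setd1a and the lowest in Setd1b. The part of cell types in these correlations was not tested.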

How the data were processed

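RNA was measured in 12 libraries (4 groups of 3). Per the labels, methods and file header, the authors prepared poly(A) libraries with a strand-marking kit, trimmed reads with Trimmomatic (0.39), aligned them to mm10 with HISAT2 (2.1.0) and counted reads over RefSeq exons with featureCounts in paired-end mode. The file header shows no strand option, so reads of antisense transcripts were not separated, although no exon of the 10 genes overlaps one of another gene. The authors deposited unnormalised counts of reads for every gene, with its exon length. Symbols were assigned to 25275 of 27179 Entrez identifiers.

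Counts were filtered by expression (filterByExpr), scaled by TMM and tested with edgeR (4.0.16, R 4.3.3) quasi-likelihood tests, with Benjamini-Hochberg adjustment over all genes tested. Each pairwise fit used the 6 libraries of its groups, and the difference between genotype effects used 12. Errors of fold changes are standard errors from that fit. DESeq2 (1.42.0), edgeR's exact test, other scalings and filters, a replicate block and left-out libraries were alternatives. The pairwise quasi-likelihood fits without a block were run on simulated data. The block, the fit of 12 libraries and the other alternatives were not tested in this way. Deviations of same-numbered libraries correlated over 0.1 in every pair for both genotype comparisons and for the control populations (0.173 to 0.425). They did not for the mutant populations (0.0428 to 0.294). The block was therefore read as a paired fit in the former comparisons only. Values given without mention of the block come from fits that do not use it. The number is not explained in the labels. Promoter windows came from a RefSeq table (GRCm38.p6). Named genes are the 10 members, Chd8, Thy1 and Kit, the called genes of the fixed lists and the 5 genes most correlated with Kmt2a. Members and lists were chosen with earlier results of these data known.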

Additional observations from a re-analysis of the deposited data

How the results depend on the processing

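In mutant against control Thy1+ cells the number of the 10 genes called was 0 in edgeR's quasi-likelihood fit, 2 with the edgeR exact test, DESeq2 or all 12 libraries in 1 fit, and 3 with the replicate block. Leaving out 1 library gave 0 throughout, and with the block and 1 number left out it was 1 to 3, being 1 (Kmt2a) without number 3. In c-Kit+ cells it was 2, and 4 with DESeq2, DESeq2 size factors in edgeR or at least 1 CPM in at least 3 libraries, which added Kmt2c and Setd1a at the edge of the fold minimum. Without that minimum it was 6. Without 1 library it was 2 to 4, with Kmt2a and Setd1b called each time, and 4 without control c-Kit+ library 1 or 3 or mutant library 2. The block left it at 2, and 2 to 4 with 1 number left out. Between control populations it was 1, 4 with library size only, 7 without the fold minimum, 1 to 5 without 1 library (5 without control Thy1+ library 2) and 2 to 3 with the block and 1 number left out. Between mutant populations it was 1, 2 without the fold minimum and 0 to 2 without 1 library. The difference between genotype effects gave 0, and 1 (Setd1b, adjusted p 0.0174) with a block, for which the pairing check was not met. The block changed no other count. The shares of all genes called moved as well. In Thy1+ cells they were 0%, 1.83% with the exact test, 2.2% with DESeq2, 1.39% with 12 libraries and 8.12% with the block. In c-Kit+ cells they were 22.2%, 22.4% with DESeq2, 22.3% with its size factors, 24.8% with the CPM filter and 39.2% without the fold minimum. Without 1 library they were 18.2% to 23.7% there. Between control populations the shares were 27.8%, 29.4% with library size only, 37.6% without the fold minimum and 32% without control Thy1+ library 2. Between mutant populations they were 20.3%, and 27.3% without the fold minimum. The blocked difference between genotype effects called 2.48% of all genes. The cause of these changes was not tested beyond the settings' own construction.

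Signs turned only for values near 0. For the difference between genotype effects, Kmt2b was -0.05 and Ash2l -0.041 with DESeq2 and with DESeq2 size factors, and Kmt2b was -0.009 without a filter. Without 1 library, these differences ran from -0.13 to 0.085 for Kmt2a, -0.1 to 0.13 for Kmt2b, -0.33 to 0.022 for Wdr5, -0.13 to 0.16 for Ash2l and -0.14 to 0.23 for Dpy30. In mutant against control Thy1+ cells the ranges were -0.17 to 0.08 for Setd1b, -0.26 to 0.031 for Wdr5, -0.2 to 0.028 for Ash2l, -0.067 to 0.072 for Rbbp5 and -0.29 to 0.014 for Dpy30. Kmt2d in c-Kit+ cells ran from -0.044 to 0.29, and Kmt2a between control populations from -0.04 to 0.22. With the block and 1 number left out, Rbbp5 was -0.045 and Setd1b 0.014 in Thy1+ cells, and Kmt2a -0.088 between control populations. The settings with a block and 1 number left out were chosen after seeing the data.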
